A study of Mus musculus with 10 samples.

Results

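The ASA+CUR group holds colon of C57BL/6 mice, labelled as tumour samples, that received the carcinogen azoxymethane (AOM) and the irritant dextran sulfate sodium (DSS) and ate a diet with aspirin (ASA, 0.01%) and curcumin (CUR, 1%) together. It is set here against the Control group, colon of C57BL/6 mice that received saline in place of AOM and no DSS. The 4 libraries of these groups, 2 each, were picked by their column names from the 10 libraries of the series. Both groups ate the AIN-93M base diet, with the 2 compounds added to it in ASA+CUR. AOM was injected once at 10 mg/kg into mice 6 weeks old, and DSS followed a week later at 1.2% in the drinking water for 7 days. The age at collection and the time the diets began are not given in the labels used here. The other groups are Model (AOM/DSS on the base diet alone), ASA (AOM/DSS with 0.02% aspirin) and CUR (AOM/DSS with 2% curcumin), also with 2 libraries each, and they show here where ASA+CUR lies among AOM/DSS colons.

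AOM is an alkylating agent whose tumours in mouse colon commonly carry stabilised beta-catenin, the effector of Wnt signalling, and DSS strips the epithelium and sets off repeated rounds of inflammation and repair. Aspirin blocks the cyclooxygenases that make prostaglandins. Curcumin, a plant polyphenol, is studied for effects on NF-kB, the Nrf2 antioxidant programme and enzymes of DNA methylation and histone deacetylation.

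The labels name the tissue of every AOM/DSS library tumour and that of both Control libraries colon, while the protocol describes a piece of colon frozen after the proximal end and tumours that could be felt had been removed. The AOM and DSS exposure, the diet and the tissue name therefore change together between ASA+CUR and Control and cannot be told apart. The colon label was checked against marker genes. Hoxb13, a transcription factor of the hindgut, was at 180.3 and 183 FPKM in ASA+CUR, against 186 and 269.7 FPKM in Control, and did not pass (adjusted p = 0.886). The intestinal epithelial factors Cdx1 and Cdx2 were measured in all 10 libraries, and their fall in ASA+CUR is described with the other position genes.

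Values are FPKM, fragments scaled to transcript length and to the mapped total of the library, summed over the transcripts of a gene. Tests are on log2(FPKM + 1) with limma over all genes, and a gene passed at a Benjamini-Hochberg adjusted p under 0.05, two-sided. Summed FPKM per library was 517417 and 515959 in ASA+CUR, against 720895 and 639954 in Control, and between 12781 and 12978 genes reached 1 FPKM in these 4 libraries. How many reads lie behind a value is unknown, since the FPKM scaling hides it. The 2 libraries of a group correlated across genes at r = 0.977 in ASA+CUR and 0.986 in Control (genes are not independent replicates). ASA+CUR replicate 0 correlated at r = 0.986 with ASA replicate 0, above its value with its own replicate. The 2 ASA+CUR libraries differed, among others, in squamous keratins, higher in replicate 0, and in calprotectin, haemoglobin and Hmox1 transcripts, higher in replicate 1. The first principal component of all 10 libraries, with 54.6% of the variance, placed ASA+CUR at -27.0 and -40.7 and Control at 85.4 in both libraries. Whether replicates are different mice is not stated in the labels, so p-values reflect only the spread among the 10 libraries, and that spread may be technical.

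Expression differed widely between combination-fed AOM/DSS colon and Control colon. Of 14061 genes tested, 4148 passed (29.5%), of which 1843 were higher in ASA+CUR (13.1%) and 2305 lower (16.4%). At least 2-fold differences were seen in 1006 of the higher and 1400 of the lower genes, and at least 8-fold differences in 142 and 140. The median log2 change over all genes was 0.03 and the median absolute log2 change 0.46. In all 4148 the ASA+CUR and Control libraries did not overlap, but that was also true of 79.8% of all genes tested, higher in 41.2% and lower in 38.6%. Where libraries are said below to lie apart, this describes the values and adds no support to a call. Without 1 library the count fell to 2312 (ASA+CUR replicate 0), 1481 (ASA+CUR replicate 1), 1702 (Control replicate 0) or 1736 (Control replicate 1), and 1311 genes passed in the same direction in all 4 of these fits.

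**Figure D1:**
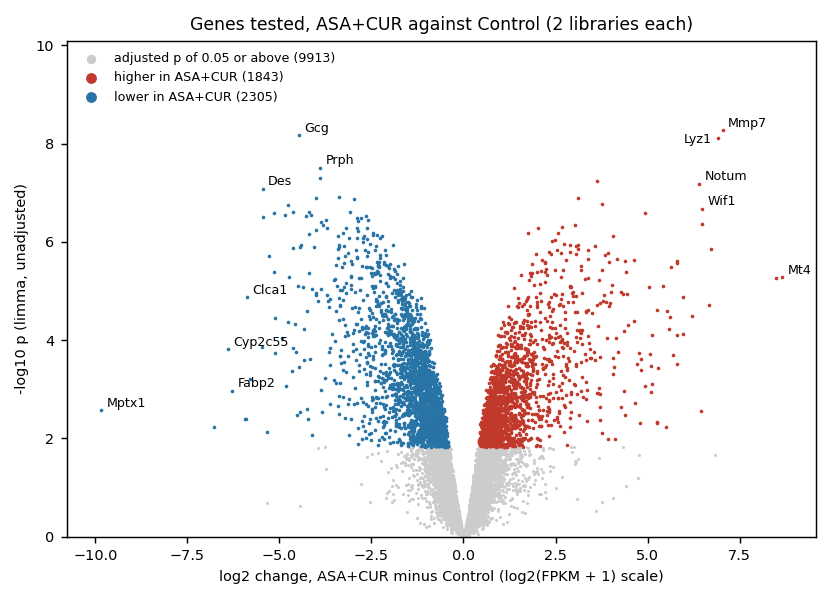
Each point is a gene, placed by its log2 change, ASA+CUR minus Control on the log2(FPKM + 1) scale, and by -log10 of its unadjusted limma p. Red points are the 1843 genes higher and blue points the 2305 genes lower in ASA+CUR past the threshold, and Mmp7, Lyz1 and Notum stand among the strongest increases, Gcg, Prph and Des among the strongest decreases.

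The 15 genes with the highest log2 change included the Wnt inhibitors Notum, Wif1 and Apcdd1, the metalloproteinases Mmp7 and Mmp10, and Lyz1, Defa24 and Defa30 of Paneth cells, a small-intestinal secretory cell that normal mouse colon lacks. Mmp7, the metalloproteinase matrilysin (chr9:7692090-7699585, GRCm38), was at 220.0 and 347 FPKM in ASA+CUR, against 0.811 and 1.44 FPKM in Control (log2 change 7.04 ± 0.27 SE, adjusted p = 3.6e-05). Both ASA+CUR libraries lay far above both Control libraries. Lyz1, the Paneth cell lysozyme (chr10:117287795-117292868), was at 897 and 989.8 FPKM in ASA+CUR, against 7.24 and 6.48 FPKM in Control (log2 change 6.91 ± 0.28 SE, adjusted p = 3.6e-05). Reads of Lyz1 can be hard to part from those of its close copy Lyz2, so its level is uncertain.

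Notum (chr11:120653788-120661193), an enzyme that strips the lipid from Wnt proteins and so disables them, was at 102 and 146 FPKM in ASA+CUR, against 0.617 and 0.328 FPKM in Control (log2 change 6.39 ± 0.34 SE, adjusted p = 0.000131). Wif1, which binds Wnt proteins outside the cell, was at 159.9 and 238 FPKM in ASA+CUR, against 0.983 and 1.43 FPKM in Control (log2 change 6.48 ± 0.40 SE, adjusted p = 0.000172). Apcdd1, a membrane inhibitor of Wnt signalling, was at 109 and 179 FPKM in ASA+CUR, against 1.58 and 0.972 FPKM in Control (log2 change 5.96 ± 0.80 SE, adjusted p = 0.00179). All 3 inhibitors were thus barely measured in Control and abundant in both ASA+CUR libraries. The metalloproteinase Mmp10 was at 134 and 283 FPKM in ASA+CUR, against 1.48 and 0.917 FPKM in Control (log2 change 6.49 ± 0.44 SE, adjusted p = 0.000187).

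Mt4, a metallothionein of stratified squamous epithelium, was listed at 0 in both Control libraries and at 302 and 538 FPKM in ASA+CUR (adjusted p = 0.000418). The alpha-defensin genes Defa24 and Defa30 were also listed at 0 in both Control libraries, with 254 and 502 FPKM for Defa24 and 49.6 and 151 FPKM for Defa30 in ASA+CUR (adjusted p = 0.000419 and 0.0163). Alpha-defensins are near-identical copies, so the split of reads between them is uncertain, and Defa30 did not pass in 3 of the fits that leave out a library (adjusted p = 0.104 without ASA+CUR replicate 1, 0.0843 without Control replicate 0 and 0.0804 without Control replicate 1). Others among the 15 highest were Krt14, Krt36, Stra6, Clca4b and S100a9. S100a9, a neutrophil protein, was at 28.3 and 161 FPKM in ASA+CUR and 0.523 and 0 FPKM in Control (log2 change 5.80 ± 0.78 SE, adjusted p = 0.00181). Stra6, the receptor for the vitamin A carrier protein, was at 88.2 and 135 FPKM in ASA+CUR, against 0.407 and 0.602 FPKM in Control (log2 change 6.19 ± 0.74 SE, adjusted p = 0.00111). Clca4b, which belongs to a family of near copies on 1 chromosome, was at 138 and 137 FPKM in ASA+CUR and 1.04 and 1.43 FPKM in Control (log2 change 5.96 ± 0.63 SE, adjusted p = 0.000691).

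The 15 genes with the lowest log2 change included Clca1 and Fabp2 of mature epithelium and Des and Cnn1 of smooth muscle. Mptx1, a pentraxin secreted by goblet cells, was at 29.8 and 6.54 FPKM in ASA+CUR, against 39340.5 and 5012 FPKM in Control (log2 change -9.85 ± 2.29 SE, adjusted p = 0.0158). The 2 Control libraries differed several-fold from each other, and the gene did not pass in 2 of the fits that leave out a library (adjusted p = 0.0988 without ASA+CUR replicate 1 and 0.106 without Control replicate 0). Clca1, a protease of the mucus layer (chr3:145004537-145032776), was at 108 and 58.99 FPKM in ASA+CUR, against 8710.1 and 2640.4 FPKM in Control (log2 change -5.89 ± 0.62 SE, adjusted p = 0.000695). Both ASA+CUR libraries lay far below both Control libraries, although the Control libraries again differed from each other.

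Cyp2c55, a cytochrome P450 of colon epithelium, was at 3.19 and 0.515 FPKM in ASA+CUR, against 149.7 and 297 FPKM in Control (log2 change -6.39 ± 0.95 SE, adjusted p = 0.0027). Fabp2, the intestinal fatty acid binding protein, was at 7.83 and 5.18 FPKM in ASA+CUR, against 738 and 445 FPKM in Control (log2 change -6.28 ± 1.26 SE, adjusted p = 0.00905, but adjusted p = 0.06 without ASA+CUR replicate 1 and 0.0622 without Control replicate 0). Hao2, a peroxisomal hydroxyacid oxidase, was at 7.21 and 5.61 FPKM in ASA+CUR and 224 and 306 FPKM in Control (log2 change -5.16 ± 0.47 SE, adjusted p = 0.000373). Hsd3b3, a steroid dehydrogenase, was at 1.73 and 1.16 FPKM in ASA+CUR and 113 and 102 FPKM in Control (log2 change -5.48 ± 0.80 SE, adjusted p = 0.00255). These 4 genes were low in both ASA+CUR libraries. Des, the intermediate filament desmin of muscle (chr1:75360292-75368579), was at 27.8 and 21.2 FPKM in ASA+CUR, against 1451 and 851 FPKM in Control (log2 change -5.46 ± 0.30 SE, adjusted p = 0.000147). Sst, the hormone somatostatin, was at 0.870 and 0.480 FPKM in ASA+CUR, against 86.5 and 46.8 FPKM in Control (log2 change -5.28 ± 0.43 SE, adjusted p = 0.00027). All of these except Fabp2 passed in each of the 4 fits that leave out a library. Others among the 15 lowest were the goblet cell protein Retnlb, Apol10a, Gm1123, 1810065E05Rik and Cnn1. The short RNAs Snora15 and Snord22 were listed at 0 in both ASA+CUR libraries, with 118 and 102 FPKM for Snora15 and 92.2 and 39.8 FPKM for Snord22 in Control. Neither passed once any library was left out (adjusted p between 0.0932 and 0.118 without 1 of the 4 libraries for Snora15, and adjusted p between 0.0708 and 0.118 without 1 of the 4 libraries for Snord22).

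**Figure D2:**
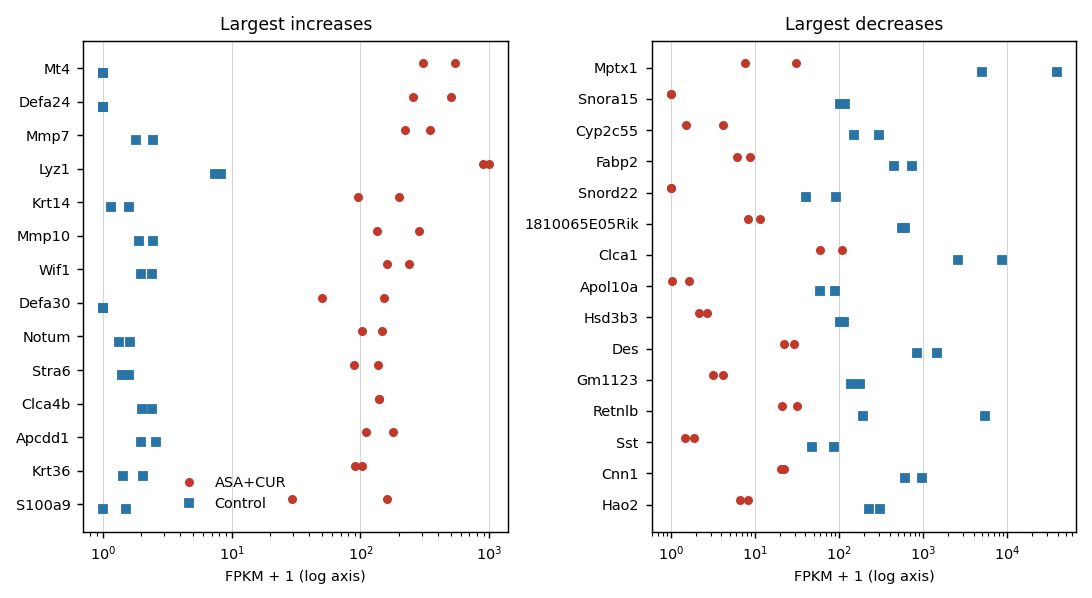
FPKM + 1 on a log axis for genes among the 15 with the highest (left) and the 15 with the lowest log2 change (right) among genes past the threshold; red circles are the 2 ASA+CUR libraries and blue squares the 2 Control libraries. The genes were picked among those whose libraries did not overlap, so the groups are apart in every row by selection. The spread between Control libraries is widest for Mptx1 and Retnlb.

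Of 28 tested genes in a list of Wnt targets and feedback inhibitors, 24 rose in ASA+CUR and 1 fell, with a median log2 change of 2.54 against 0.03 over all genes. Without 1 library, 22 to 23 rose and the median was 2.32 to 2.77. Feedback inhibitors of the pathway were among those that rose. Axin2, the scaffold of the beta-catenin destruction complex and a standard readout of the pathway (chr11:108917828-108950783), was at 95.6 and 111 FPKM in ASA+CUR, against 13.9 and 13.05 FPKM in Control (log2 change 2.85 ± 0.31 SE, adjusted p = 0.000763). Rnf43, a ligase that removes Wnt receptors, was at 54.6 and 64.4 FPKM in ASA+CUR, against 8.19 and 8.99 FPKM in Control (log2 change 2.65 ± 0.21 SE, adjusted p = 0.00026). Dkk2, a secreted receptor antagonist, was at 24.5 and 43.8 FPKM in ASA+CUR, against 0.805 and 0.951 FPKM in Control (log2 change 4.17 ± 0.35 SE, adjusted p = 0.000301). Nkd1, which restrains Dishevelled, was at 111 and 153 FPKM in ASA+CUR and 8.87 and 6.29 FPKM in Control (log2 change 3.95 ± 0.34 SE, adjusted p = 0.000314). Each of the 4 was several-fold higher in both ASA+CUR libraries than in either Control library.

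Its relative Nkd2 was the 1 member that fell, at 0.890 and 0.722 FPKM in ASA+CUR, against 7.31 and 4.85 FPKM in Control (log2 change -1.95 ± 0.48 SE, adjusted p = 0.0197), and it did not pass once any library was left out (adjusted p between 0.0621 and 0.121 without 1 of the 4 libraries). Among ligands, Wnt6 was at 18.2 and 42.3 FPKM in ASA+CUR and 0.515 and 0.461 FPKM in Control (log2 change 4.28 ± 0.44 SE, adjusted p = 0.000631). Wnt10a was at 23.2 and 39.00 FPKM in ASA+CUR and 0.182 and 0.0376 FPKM in Control (log2 change 4.81 ± 0.76 SE, adjusted p = 0.00352). Both ligands were under 1 FPKM in each Control library. Among the transcription factors that carry the signal, Lef1 was at 9.54 and 15.2 FPKM in ASA+CUR and 0.142 and 0.265 FPKM in Control (log2 change 3.44 ± 0.54 SE, adjusted p = 0.00347). Tcf7 was at 26.96 and 38.3 FPKM in ASA+CUR and 2.92 and 3.97 FPKM in Control (log2 change 2.91 ± 0.29 SE, adjusted p = 0.000546). Myc, a growth regulator downstream of the pathway, was at 55.6 and 54.1 FPKM in ASA+CUR, against 18.02 and 18.8 FPKM in Control (log2 change 1.53 ± 0.24 SE, adjusted p = 0.00365). The list also holds Tcf4, which encodes an E-box binding factor and not the Wnt effector Tcf7l2, and it rose too (37.4 and 41.5 FPKM in ASA+CUR and 7.70 and 8.08 FPKM in Control, log2 change 2.18 ± 0.32 SE, adjusted p = 0.00268). The same list had a median of 2.23 in Model against Control, a comparison that shares the Control libraries.

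Stem cell markers moved in both directions, more of them up. Of 15 tested, 9 rose and 2 fell (median 0.94), and without 1 library 4 to 6 rose. Lgr5, the receptor that marks crypt base stem cells, was at 11.4 and 20.3 FPKM in ASA+CUR, against 3.15 and 4.05 FPKM in Control (log2 change 1.83 ± 0.28 SE, adjusted p = 0.00307). Ascl2, the transcription factor of the same cells, was at 21.2 and 17.8 FPKM in ASA+CUR, against 5.72 and 4.77 FPKM in Control (log2 change 1.71 ± 0.30 SE, adjusted p = 0.00526). Lrig1, a brake on growth factor receptors that marks quiescent stem cells, fell, at 14.6 and 17.1 FPKM in ASA+CUR, against 46.97 and 46.9 FPKM in Control (log2 change -1.51 ± 0.16 SE, adjusted p = 0.000763), as did Rgmb, a BMP co-receptor (11.2 and 9.66 FPKM in ASA+CUR and 37.7 and 35.8 FPKM in Control, log2 change -1.73 ± 0.25 SE, adjusted p = 0.00258). The groups did not overlap for any of the 4, as for every gene that passed and for 79.8% of all genes tested.

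Genes of the fetal-like state that injured intestinal epithelium takes on rose in 12 of 19 members, and none fell. The median was 2.52, against 1.43 in Model against Control, and 7 of the members rose without Control replicate 0. Anxa1, an inhibitor of phospholipase A2, was at 869 and 739 FPKM in ASA+CUR, against 149 and 152 FPKM in Control (log2 change 2.40 ± 0.31 SE, adjusted p = 0.00152). The tight junction gene Cldn4 was at 369.6 and 487 FPKM in ASA+CUR, against 18.2 and 34.6 FPKM in Control (log2 change 4.02 ± 0.40 SE, adjusted p = 0.000535). The keratin gene Krt7 was at 397 and 426 FPKM in ASA+CUR and 83.7 and 92.3 FPKM in Control (log2 change 2.21 ± 0.20 SE, adjusted p = 0.00037). These 3 genes were higher in both ASA+CUR libraries than in any Control library.

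Of 11 genes of the EGF family, 4 ligands rose and 1 fell. Nrg1, a ligand of stromal cells, was at 10.9 and 16.9 FPKM in ASA+CUR, against 1.56 and 0.697 FPKM in Control (log2 change 2.81 ± 0.40 SE, adjusted p = 0.00219). Tgfa was at 22.7 and 26.6 FPKM in ASA+CUR and 9.02 and 10.1 FPKM in Control (log2 change 1.28 ± 0.20 SE, adjusted p = 0.00333). Btc was at 12.5 and 15.6 FPKM in ASA+CUR and 3.88 and 4.10 FPKM in Control (log2 change 1.58 ± 0.26 SE, adjusted p = 0.00383). Ereg was at 29.2 and 53.6 FPKM in ASA+CUR, against 2.28 and 1.93 FPKM in Control, and its call (adjusted p = 0.0218) did not hold once any library was left out (adjusted p between 0.0558 and 0.125 without 1 of the 4 libraries). Egf itself was low in both groups and fell, at 0.289 and 0.233 FPKM in ASA+CUR, against 1.56 and 3.002 FPKM in Control (log2 change -1.34 ± 0.24 SE, adjusted p = 0.00575).

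In the BMP and TGF-beta list 9 of 21 rose and 4 fell (median 0.66). Only 5 rose without ASA+CUR replicate 1 or Control replicate 1, 2 fell without Control replicate 0, and the median was 0.38 without Control replicate 1. Inhba, the subunit of the ligand activin A, was at 27.7 and 47.5 FPKM in ASA+CUR, against 0.661 and 0.348 FPKM in Control (log2 change 4.64 ± 0.39 SE, adjusted p = 0.000307). Bmp7 was at 26.2 and 46.7 FPKM in ASA+CUR and 4.85 and 4.91 FPKM in Control (log2 change 2.61 ± 0.29 SE, adjusted p = 0.000813). Bambi, a decoy receptor, was at 14.1 and 9.17 FPKM in ASA+CUR and 2.64 and 2.000 FPKM in Control (log2 change 1.91 ± 0.29 SE, adjusted p = 0.00293). All 3 ligand or receptor genes were apart between the groups. Among those that fell were Bmp3, an antagonistic BMP, at 1.95 and 1.72 FPKM in ASA+CUR and 12.00 and 15.8 FPKM in Control (log2 change -2.38 ± 0.32 SE, adjusted p = 0.00182), and Chrdl1 and Id4, which were named after their values were seen. Chrdl1 was at 1.17 and 0.318 FPKM in ASA+CUR and 5.99 and 5.07 FPKM in Control (adjusted p = 0.0073, and adjusted p = 0.0603 without ASA+CUR replicate 1 and 0.0543 without Control replicate 0). Id4 was at 4.599 and 1.49 FPKM in ASA+CUR and 12.4 and 11.7 FPKM in Control (adjusted p = 0.00847, and adjusted p = 0.0572 without Control replicate 0 and 0.0505 without Control replicate 1).

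Matrix metalloproteinases cut collagens and other matrix proteins, and TIMP proteins inhibit them. Of 20 members of the list 12 rose and none fell, with a median of 1.78, and 11 to 13 rose without 1 library. Mmp13, a collagenase, was at 68.4 and 178 FPKM in ASA+CUR, against 1.20 and 0.833 FPKM in Control (log2 change 5.79 ± 0.49 SE, adjusted p = 0.000312). Mmp14, which activates other members at the cell surface, was at 150.1 and 163 FPKM in ASA+CUR, against 45.9 and 44.9 FPKM in Control (log2 change 1.76 ± 0.13 SE, adjusted p = 0.000204). Mmp12, the macrophage elastase, was at 6.05 and 9.53 FPKM in ASA+CUR and 0.450 and 0.626 FPKM in Control (log2 change 2.49 ± 0.34 SE, adjusted p = 0.00195). Both ASA+CUR libraries exceeded both Control libraries for each of them. Mmp3, stromelysin, was at 10.7 and 44.98 FPKM in ASA+CUR, against 2.05 and 0.786 FPKM in Control (log2 change 3.32 ± 0.70 SE, adjusted p = 0.0112, but adjusted p = 0.067 without ASA+CUR replicate 1 and 0.0777 without Control replicate 1). Mmp9, a gelatinase of neutrophils, was at 11.1 and 13.1 FPKM in ASA+CUR and 0.767 and 0.951 FPKM in Control (log2 change 2.81 ± 0.48 SE, adjusted p = 0.00489). The sheddase Adam8 was at 17.2 and 29.5 FPKM in ASA+CUR and 1.34 and 0.681 FPKM in Control (log2 change 3.57 ± 0.27 SE, adjusted p = 0.000237). Timp1, an inhibitor of these enzymes, rose as well, at 23.05 and 41.96 FPKM in ASA+CUR, against 2.86 and 1.61 FPKM in Control (log2 change 3.34 ± 0.39 SE, adjusted p = 0.000972).

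Mmp13, Mmp12, Mmp3, Mmp10 and Mmp7 all lie on chromosome 9, and each carried the AP-1 motif TGANTCA, the site of Jun and Fos proteins, in the 250 bases before a RefSeq gene start. The stretches are shown because these 5 genes, which all rose, share the motif close to the start. They come from RefSeq on GRCm38.p6, all on the plus strand, in lower case with the motif in capitals.
Mmp13, chr9:7272264-7272513: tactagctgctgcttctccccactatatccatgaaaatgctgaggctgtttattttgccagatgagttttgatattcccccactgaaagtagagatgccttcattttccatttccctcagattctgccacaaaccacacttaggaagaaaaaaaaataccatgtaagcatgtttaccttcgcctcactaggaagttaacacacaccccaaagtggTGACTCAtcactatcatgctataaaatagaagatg
Mmp12, chr9:7347124-7347373: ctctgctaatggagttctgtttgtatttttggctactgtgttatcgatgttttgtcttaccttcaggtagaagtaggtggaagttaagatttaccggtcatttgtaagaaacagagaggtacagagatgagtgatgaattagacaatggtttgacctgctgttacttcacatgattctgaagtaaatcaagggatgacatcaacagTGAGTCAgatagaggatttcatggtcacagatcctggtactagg
Mmp3, chr9:7445572-7445821: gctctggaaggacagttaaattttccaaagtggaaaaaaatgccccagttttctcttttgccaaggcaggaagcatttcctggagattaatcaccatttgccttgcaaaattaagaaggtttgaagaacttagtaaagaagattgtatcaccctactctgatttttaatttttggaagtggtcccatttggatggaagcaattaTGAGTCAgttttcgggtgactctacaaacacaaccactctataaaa
Mmp10, chr9:7502092-7502341: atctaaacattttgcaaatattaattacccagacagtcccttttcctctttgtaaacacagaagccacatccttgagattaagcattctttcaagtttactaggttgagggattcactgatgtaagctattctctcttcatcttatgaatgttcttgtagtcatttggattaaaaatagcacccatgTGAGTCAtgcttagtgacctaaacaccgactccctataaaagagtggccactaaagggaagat
Mmp7, chr9:7691840-7692089: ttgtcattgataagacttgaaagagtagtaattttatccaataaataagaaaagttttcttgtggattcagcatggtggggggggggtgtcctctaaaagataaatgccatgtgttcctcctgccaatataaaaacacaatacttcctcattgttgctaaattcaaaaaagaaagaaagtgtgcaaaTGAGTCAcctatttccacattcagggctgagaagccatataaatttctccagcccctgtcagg

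The first base of the motif lay at -35 in Mmp13, -44 in Mmp12, -46 in Mmp3 and -63 in both Mmp10 and Mmp7, counted from the start. Of the 12 metalloproteinase list members that rose, 8 had a promoter in the sequence table and 5 of these held the motif, searched on both strands, as did 6.15% of the 11003 tested genes with a promoter. The members without it were Adam8, Mmp14 and Timp1. The 5 stretches with it lie close together, between chr9:7272264 and chr9:7692089, and may not be independent. Whether these shares differ was not tested. The TCF/LEF motif CTTTGAT, read the same way, was found in 3 of 15 Wnt list members that rose (Sp5, Mmp7 and Tnfrsf19) and in 2.89% of all. The CArG box of smooth muscle genes was found in 1 of 17 smooth muscle list members that fell, Myl9, and in 1.46% of all. The TCF/LEF and AP-1 matches of Mmp7 lie before different starts and do not overlap. The TCF/LEF stretch, chr9:7692091-7692340, begins after the gene start given above for Mmp7. It thus lies within the gene, before an internal start. These are matches of letters and not measured binding.

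Among the AP-1 subunit genes, Jun was at 70.8 and 94.2 FPKM in ASA+CUR, against 43.2 and 43.8 FPKM in Control (log2 change 0.89 ± 0.23 SE, adjusted p = 0.0224). Junb was at 85.5 and 119 FPKM in ASA+CUR and 46.5 and 33.9 FPKM in Control (log2 change 1.32 ± 0.36 SE, adjusted p = 0.0274). Fosl1 was at 2.29 and 3.84 FPKM in ASA+CUR and 0.159 and 0.0439 FPKM in Control (log2 change 1.86 ± 0.45 SE, adjusted p = 0.0177). All 3 passed with all libraries, and none passed in every fit that leaves 1 out (adjusted p = 0.153 without ASA+CUR replicate 1, 0.108 without Control replicate 0 and 0.0984 without Control replicate 1 for Jun, adjusted p between 0.0544 and 0.162 without 1 of the 4 libraries for Junb, and adjusted p = 0.117 without ASA+CUR replicate 1, 0.0801 without Control replicate 0 and 0.0939 without Control replicate 1 for Fosl1). Other AP-1 subunit genes are not named here, so a general rise of the subunits is not shown. Jun, Junb and Fosl1 belong to a list of 23 immediate early genes, with a log2 change above 0 in 16 members and below 0 in 7. Of the 23, 6 rose, none fell and 17 did not pass (median 0.60). Without ASA+CUR replicate 0, 4 of them rose, and 1 rose without any other of the 4 libraries. Ier3, an early survival gene, was its strongest member, at 89.9 and 125 FPKM in ASA+CUR and 15.7 and 9.79 FPKM in Control (log2 change 2.996 ± 0.45 SE, adjusted p = 0.00287).

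Fibroblast and collagen genes rose in 13 of 24 members, and none fell (median 1.05, and 1.06 in Model against Control). Col18a1, a basement membrane collagen, was at 87.2 and 112 FPKM in ASA+CUR, against 13.8 and 12.4 FPKM in Control (log2 change 2.82 ± 0.38 SE, adjusted p = 0.00172). Dcn, the proteoglycan decorin, was at 298 and 275 FPKM in ASA+CUR, against 113 and 106 FPKM in Control (log2 change 1.38 ± 0.21 SE, adjusted p = 0.00314). Lox, which cross-links collagen, was at 11.9 and 9.95 FPKM in ASA+CUR and 1.42 and 1.996 FPKM in Control (log2 change 2.14 ± 0.35 SE, adjusted p = 0.00408). Col1a1 was at 153 and 122 FPKM in ASA+CUR and 53.3 and 45.1 FPKM in Control (log2 change 1.46 ± 0.27 SE, adjusted p = 0.00692, but adjusted p = 0.0549 without Control replicate 1). Without 1 library 4 to 9 members rose, and 1 fell without ASA+CUR replicate 0.

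**Figure D3:**
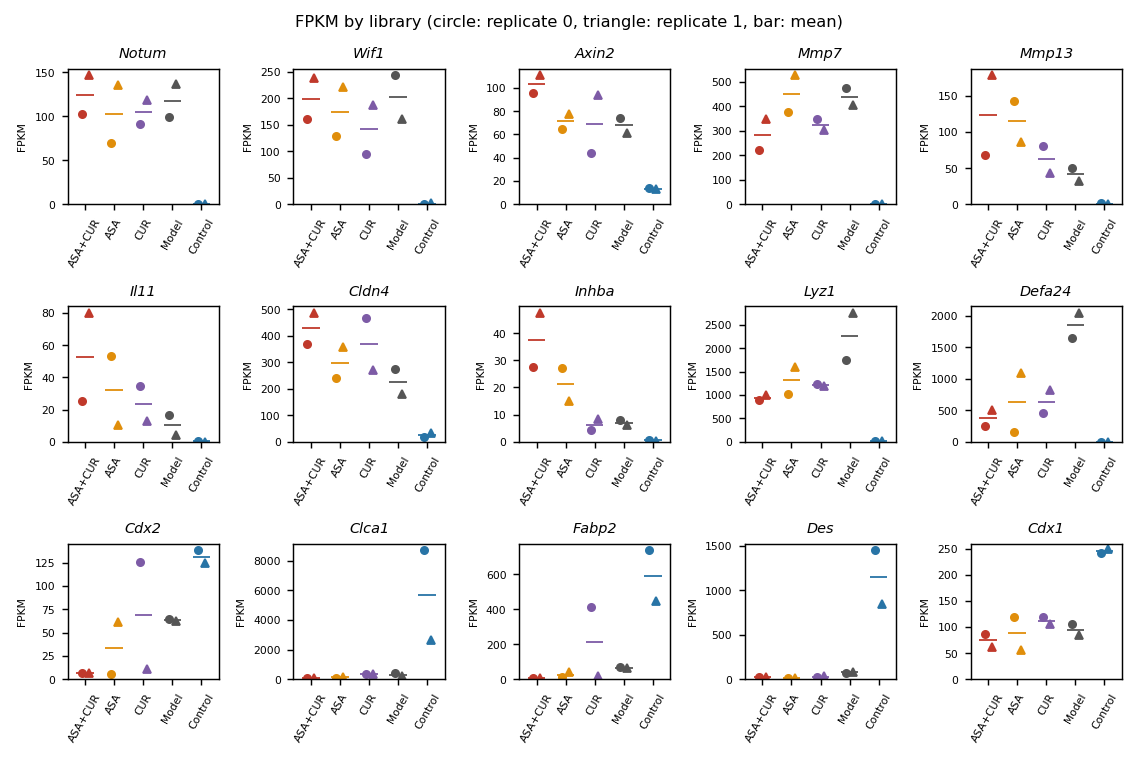
FPKM of 15 genes in all 10 libraries, with ASA+CUR at the left and Control at the right of each panel, circles for replicate 0, triangles for replicate 1 and bars for the mean of 2. Notum, Wif1, Axin2, Mmp7, Mmp13, Il11, Cldn4, Inhba, Lyz1 and Defa24 are higher and Cdx2, Clca1, Fabp2, Des and Cdx1 lower in both ASA+CUR libraries than in both Control libraries.

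Paneth cell genes rose in 12 of 19 tested members, and none fell. Of the 20 listed, 11 had 0 in both Control libraries and none had 0 in both ASA+CUR libraries. The median log2 change was 3.98 on the log2(FPKM + 1) scale, with those genes at 0, and 6.75 in Model against Control. Only 5 members rose without ASA+CUR replicate 1, and 7 rose and 1 fell without Control replicate 1. Besides Lyz1 and the defensins, Pla2g2a, a secreted phospholipase that kills bacteria, was at 198 and 332 FPKM in ASA+CUR, against 22.4 and 10.5 FPKM in Control (log2 change 3.98 ± 0.44 SE, adjusted p = 0.000797). Its level was more than 8-fold higher in both ASA+CUR libraries than in either Control library. Ang4, an antibacterial ribonuclease named after its values were seen, did not pass and lay the other way, at 138 and 155 FPKM in ASA+CUR, against 6377 and 633 FPKM in Control (adjusted p = 0.0506). The summed level of the list was 2360.3 and 3281 FPKM in ASA+CUR, against 6957 and 1059.7 FPKM in Control, and the high sum in Control replicate 0 was mostly Ang4.

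Of 22 mucosal defence genes 7 rose and 7 fell, with 3 to 5 higher and 3 to 7 lower without 1 library. Their median of 0.50 was -0.06 without Control replicate 0 and -0.43 without Control replicate 1. Wfdc18, a small secreted protein with a protease inhibitor fold, was at 212 and 396 FPKM in ASA+CUR, against 14.6 and 12.5 FPKM in Control (log2 change 4.32 ± 0.45 SE, adjusted p = 0.000646). Saa1, a serum amyloid with a near-identical copy in Saa2, fell, at 336 and 197 FPKM in ASA+CUR, against 2179 and 2651 FPKM in Control (log2 change -3.22 ± 0.41 SE, adjusted p = 0.00141). Pigr, which carries IgA across the epithelium, was at 301 and 124 FPKM in ASA+CUR, against 1538 and 1562 FPKM in Control (log2 change -2.997 ± 0.45 SE, adjusted p = 0.00285). Zg16, a lectin of the mucus that binds bacteria, was at 619 and 672 FPKM in ASA+CUR, against 4639.6 and 5628 FPKM in Control (log2 change -2.98 ± 0.39 SE, adjusted p = 0.00163). For these 3 genes both ASA+CUR libraries lay below both Control libraries. Of 10 epithelial oxidase and nitric oxide genes 2 rose and 2 fell with all libraries, none rose without ASA+CUR replicate 1 or Control replicate 0, and the median of 0.10 was between -0.07 and 0.25 without 1 library. Nox1, the oxidase of colon epithelium, was at 5.26 and 7.62 FPKM in ASA+CUR and 12.8 and 12.3 FPKM in Control (log2 change -0.88 ± 0.20 SE, adjusted p = 0.0156, but adjusted p = 0.0998 without ASA+CUR replicate 0, 0.0926 without Control replicate 0 and 0.0789 without Control replicate 1). Cybb, that of phagocytes, was at 9.10 and 5.63 FPKM in ASA+CUR and 2.34 and 2.36 FPKM in Control (log2 change 1.29 ± 0.40 SE, adjusted p = 0.0437, but adjusted p between 0.0813 and 0.204 without 1 of the 4 libraries). Nos2, the inducible nitric oxide synthase, was at 3.94 and 2.11 FPKM in ASA+CUR and 2.04 and 0.405 FPKM in Control (adjusted p = 0.146). The 2 of 10 oxidase list members in each direction stand against 13.1% higher and 16.4% lower over all genes.

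Most cytokine genes that passed were higher in ASA+CUR. Of 15 cytokine genes tested 10 rose and 1, Il18, fell (median 1.68). Only 5 rose without ASA+CUR replicate 1, where the median was 0.99, 5 without Control replicate 0 and 6 without Control replicate 1. Il1b was at 27.5 and 53.5 FPKM in ASA+CUR, against 1.77 and 1.17 FPKM in Control (log2 change 4.01 ± 0.41 SE, adjusted p = 0.000632). Il11, a cytokine of activated fibroblasts, was at 25.3 and 80.1 FPKM in ASA+CUR, against 0.368 and 0.0380 FPKM in Control (log2 change 5.28 ± 0.89 SE, adjusted p = 0.0046). Il23a, a subunit of interleukin 23, was at 9.05 and 13.6 FPKM in ASA+CUR, against 0 and 0.170 FPKM in Control (log2 change 3.49 ± 0.41 SE, adjusted p = 0.000997). Tnf was at 7.12 and 5.19 FPKM in ASA+CUR and 0.338 and 0.419 FPKM in Control (log2 change 2.36 ± 0.28 SE, adjusted p = 0.00111). All 4 passed in each fit that leaves out a library. Il6 did not pass, at 0.998 and 4.63 FPKM in ASA+CUR, against 0.0893 and 0 FPKM in Control (adjusted p = 0.153). Il18, a cytokine of the epithelium named after its values were seen, was at 51.1 and 32.7 FPKM in ASA+CUR, against 108 and 120.4 FPKM in Control (log2 change -1.46 ± 0.28 SE, adjusted p = 0.00754, but adjusted p = 0.0602 without ASA+CUR replicate 1 and 0.0549 without Control replicate 1).

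Of 26 chemokine genes tested, 9 rose and 2 fell (median 0.93, and 1.80 in Model against Control). Cxcl5, a neutrophil attractant like the next 3 genes, was at 57.2 and 61.7 FPKM in ASA+CUR, against 0.275 and 0.182 FPKM in Control (log2 change 5.62 ± 0.67 SE, adjusted p = 0.00113). Cxcl1 was at 15.4 and 25.4 FPKM in ASA+CUR and 0.316 and 0.174 FPKM in Control (log2 change 4.06 ± 0.64 SE, adjusted p = 0.0034). Cxcl2 was at 8.62 and 35.02 FPKM in ASA+CUR and 0.179 and 0 FPKM in Control (log2 change 4.10 ± 0.69 SE, adjusted p = 0.00451), and Cxcl3 was listed at 0 in both Control libraries and at 8.26 and 32.3 FPKM in ASA+CUR (adjusted p = 0.00197). Those that fell were the epithelial Ccl28, at 13.9 and 4.39 FPKM in ASA+CUR and 40.5 and 39.7 FPKM in Control (adjusted p = 0.0226, and adjusted p = 0.139 without ASA+CUR replicate 1, 0.105 without Control replicate 0 and 0.0981 without Control replicate 1), and Ccl6, at 67.2 and 89.1 FPKM in ASA+CUR, against 394 and 402 FPKM in Control (log2 change -2.35 ± 0.20 SE, adjusted p = 0.000312). Only 4 chemokines rose without Control replicate 1.

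Genes of NF-kB, the transcription factor that drives many of these mediators, rose in 10 of 20 members, and none fell (median 0.82). Without 1 library 5 to 6 rose. Icam1, an adhesion receptor for leukocytes, was at 24.7 and 21.2 FPKM in ASA+CUR, against 5.98 and 4.63 FPKM in Control (log2 change 1.93 ± 0.24 SE, adjusted p = 0.00126). Tnfaip2 was at 12.8 and 13.01 FPKM in ASA+CUR and 3.18 and 2.99 FPKM in Control (log2 change 1.77 ± 0.21 SE, adjusted p = 0.00103). Rel, a subunit of the factor, was at 6.03 and 5.29 FPKM in ASA+CUR and 1.01 and 1.20 FPKM in Control (log2 change 1.66 ± 0.30 SE, adjusted p = 0.00608).

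Neutrophil genes rose in 8 of 11 tested members, with a median of 2.53, and their summed level was 428 and 344 FPKM in ASA+CUR, against 5.65 and 3.93 FPKM in Control. Of 18 in the table, 6 were listed at 0 in both Control libraries. S100a8, which forms calprotectin together with S100a9, was at 25.4 and 119 FPKM in ASA+CUR, against 0.378 and 0 FPKM in Control (log2 change 5.58 ± 0.73 SE, adjusted p = 0.00157). ASA+CUR replicate 1 was several times higher than replicate 0, while both exceeded Control. The decoy receptor Il1r2 was at 8.44 and 6.93 FPKM in ASA+CUR, against 0.418 and 0.576 FPKM in Control (log2 change 2.53 ± 0.20 SE, adjusted p = 0.000248). Ltf, lactoferrin, was at 335 and 1.35 FPKM in ASA+CUR, against 0 and 0.105 FPKM in Control and did not pass (adjusted p = 0.14), and it made up most of the sum in replicate 0. The part of neutrophils in the rise of Cxcl and Mmp9 transcripts was not tested.

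Of 21 macrophage and dendritic cell genes 8 rose (median 0.95, 1.59 in Model against Control), but 3 to 5 without 1 library. Arg1, arginase, was at 72.7 and 91.9 FPKM in ASA+CUR, against 0.812 and 0.517 FPKM in Control (log2 change 5.64 ± 0.49 SE, adjusted p = 0.00033). Spp1, osteopontin, was at 20.2 and 69.8 FPKM in ASA+CUR, against 0.392 and 0.540 FPKM in Control (log2 change 4.72 ± 0.78 SE, adjusted p = 0.00405). The integrin Itgam was at 8.43 and 11.2 FPKM in ASA+CUR and 2.43 and 2.22 FPKM in Control (log2 change 1.69 ± 0.28 SE, adjusted p = 0.00437). Of 15 T and NK cell genes, Zap70 and Gzmb rose, and neither passed in every fit that leaves out a library (adjusted p = 0.174 without ASA+CUR replicate 1, 0.135 without Control replicate 0 and 0.0985 without Control replicate 1 for Zap70, and adjusted p between 0.0601 and 0.228 without 1 of the 4 libraries for Gzmb). Zap70 was at 2.65 and 6.16 FPKM in ASA+CUR and 0.284 and 0.503 FPKM in Control. Gzmb was at 2.73 and 1.40 FPKM in ASA+CUR and 0.787 and 0.217 FPKM in Control. Over all genes 13.1% rose, which is near the share of the T and NK cell list. The median of that list was 0.32 (0.52 without Control replicate 0), against 1.27 in Model against Control, and its summed level was 28.3 and 25.2 FPKM in ASA+CUR, against 17.00 and 12.2 FPKM in Control.

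Of 14 B and plasma cell genes, Sdc1 rose and Xbp1 fell, both also expressed by epithelium. The list's median was -0.10 (between -0.36 and 0.16 without 1 library), and over all genes 13.1% rose and 16.4% fell. Sdc1, syndecan 1, was at 205 and 268 FPKM in ASA+CUR and 94.5 and 118 FPKM in Control (log2 change 1.143 ± 0.26 SE, adjusted p = 0.0148, but adjusted p = 0.109 without ASA+CUR replicate 1 and 0.104 without Control replicate 0). Xbp1, a factor of the unfolded protein response, was at 108 and 109.7 FPKM in ASA+CUR and 217 and 171 FPKM in Control (log2 change -0.82 ± 0.19 SE, adjusted p = 0.0145, but adjusted p = 0.0722 without ASA+CUR replicate 0, 0.0833 without ASA+CUR replicate 1 and 0.109 without Control replicate 0). Jchain, which joins IgA and was named after its values were seen, was at 108 and 72.2 FPKM in ASA+CUR and 483 and 189.7 FPKM in Control and did not pass (adjusted p = 0.0635). Of 13 mast cell genes 3 rose and Kit fell. Il1rl1, the receptor for interleukin 33, was at 88.2 and 192 FPKM in ASA+CUR, against 3.66 and 1.56 FPKM in Control (log2 change 5.25 ± 0.60 SE, adjusted p = 0.000938). Hdc, which makes histamine, and the protease Cma1 rose with all libraries (3.75 and 8.78 FPKM in ASA+CUR and 0.553 and 0.610 FPKM in Control for Hdc, 10.4 and 8.12 FPKM in ASA+CUR and 0.994 and 1.05 FPKM in Control for Cma1) but not in every fit that leaves out a library (adjusted p = 0.139 without ASA+CUR replicate 1, 0.102 without Control replicate 0 and 0.0931 without Control replicate 1 for Hdc, and adjusted p between 0.117 and 0.141 without 1 of the 4 libraries for Cma1). Kit, also carried by the pacemaker cells of the gut muscle, was at 3.99 and 3.37 FPKM in ASA+CUR, against 24.4 and 24.4 FPKM in Control (log2 change -2.45 ± 0.32 SE, adjusted p = 0.00161). The mast cell median of 0.41 was -0.18 without Control replicate 1 and 1.64 without Control replicate 0. Of 15 endothelial genes Prox1 alone passed, a lymphatic factor that is also in the Wnt list, at 50.7 and 70.0 FPKM in ASA+CUR and 0.676 and 0.813 FPKM in Control (log2 change 5.12 ± 0.69 SE, adjusted p = 0.00184).

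Interferon response genes were few among those that passed. Of 32 tested 2 rose, 1 fell and 29 did not pass, where 13.1% of all genes rose and 16.4% fell. The median of 0.32 was -0.22 without ASA+CUR replicate 0 and 0.81 without ASA+CUR replicate 1. Model against Control had a median of 0.996. Usp18, a brake on interferon receptors, was at 8.67 and 11.01 FPKM in ASA+CUR, against 1.63 and 1.26 FPKM in Control (log2 change 2.14 ± 0.52 SE, adjusted p = 0.0188). Irgm2, an immunity-related GTPase, was at 14.5 and 11.99 FPKM in ASA+CUR, against 7.69 and 8.92 FPKM in Control (log2 change 0.61 ± 0.17 SE, adjusted p = 0.0288). Isg20, a ribonuclease, fell, at 10.8 and 13.7 FPKM in ASA+CUR and 37.4 and 31.4 FPKM in Control (log2 change -1.42 ± 0.30 SE, adjusted p = 0.0109). None of the 3 passed in every fit that leaves out a library (adjusted p between 0.0588 and 0.107 without 1 of the 4 libraries for Usp18; adjusted p between 0.073 and 0.169 without 1 of the 4 libraries for Irgm2; adjusted p = 0.0634 without ASA+CUR replicate 0 and 0.078 without Control replicate 0 for Isg20). The 2 ASA+CUR libraries stood apart for this list: the GTPase gene Iigp1, named after its values were seen like Gbp2, was at 14.4 and 0.844 FPKM in ASA+CUR and 2.32 and 2.60 FPKM in Control. Gbp2 was at 36.8 and 6.20 FPKM in ASA+CUR and 12.7 and 12.7 FPKM in Control, so replicate 0 lay above and replicate 1 below Control for both. Of 13 genes of MHC class II presentation only the co-stimulator Cd80 rose, at 3.21 and 2.63 FPKM in ASA+CUR and 0.586 and 0.220 FPKM in Control (log2 change 1.49 ± 0.21 SE, adjusted p = 0.00197), and the list's median of 0.20 was between -0.17 and 0.63 without 1 library.

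Genes of stratified squamous epithelium, which lines the anal canal and not the colon, rose in 9 of 21 tested members, and none fell. Only 4 rose without ASA+CUR replicate 0 and 3 without either Control library. The median was 2.25, against 1.58 in Model against Control, and it was 1.42 without ASA+CUR replicate 0 and 3.04 without ASA+CUR replicate 1. Their summed level was 1366 and 842 FPKM in ASA+CUR, against 28.8 and 20.9 FPKM in Control, and 9 of 25 were listed at 0 in both Control libraries. Krt14, a keratin of basal squamous cells, was at 198 and 95.2 FPKM in ASA+CUR, against 0.164 and 0.589 FPKM in Control (log2 change 6.67 ± 0.74 SE, adjusted p = 0.000841). Krt36, a hair-type keratin outside the list, was at 89.1 and 101 FPKM in ASA+CUR, against 0.437 and 1.04 FPKM in Control (log2 change 5.81 ± 0.95 SE, adjusted p = 0.00407). Dsg3, a desmosomal cadherin, was at 7.01 and 4.34 FPKM in ASA+CUR, against 0 and 0.0171 FPKM in Control (log2 change 2.70 ± 0.42 SE, adjusted p = 0.00323). In contrast, Krt5, the usual partner of Krt14, was high in replicate 0 alone: 212 and 0.0662 FPKM in ASA+CUR, against 0.161 and 0.0667 FPKM in Control (adjusted p = 0.313).

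Several other squamous genes shared the uneven pattern of Krt5, and these were named after their values were seen. Krt13 was at 227 and 21.6 FPKM in ASA+CUR, against 1.21 and 0.118 FPKM in Control (log2 change 5.51 ± 1.48 SE, adjusted p = 0.0264, but adjusted p = 0.14 without ASA+CUR replicate 0, 0.0901 without Control replicate 0 and 0.131 without Control replicate 1). Krt6a was at 105 and 13.3 FPKM in ASA+CUR and 0 and 0.0322 FPKM in Control (adjusted p = 0.0237, and adjusted p = 0.127 without ASA+CUR replicate 0, 0.107 without Control replicate 0 and 0.101 without Control replicate 1). Krt15 was at 64.5 and 16.2 FPKM in ASA+CUR and 0.421 and 0.261 FPKM in Control (adjusted p = 0.0128, and adjusted p = 0.0746 without ASA+CUR replicate 0, 0.0674 without Control replicate 0 and 0.0721 without Control replicate 1). Krt4 was at 85.1 and 3.82 FPKM in ASA+CUR and 0 and 0.0343 FPKM in Control. Trp63, the master factor of squamous cells, was at 5.64 and 0.0867 FPKM in ASA+CUR and 0 and 0 FPKM in Control, and neither gene passed (adjusted p = 0.0506 for Krt4 and 0.218 for Trp63). Thus Trp63 was close to 0 in ASA+CUR replicate 1, where Krt14 and Mt4 were high. The part of squamous epithelium in other differences was not tested.

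Genes that mark position along the colon were examined next. Of 17 tested 2 rose and 4 fell with all libraries, where 13.1% of all genes rose and 16.4% fell, and none rose and 0 to 2 fell in the fits that leave out a library. Hoxd12, a factor of the most distal hindgut, was at 19.1 and 22.05 FPKM in ASA+CUR, against 0.312 and 0.172 FPKM in Control (log2 change 4.12 ± 1.24 SE, adjusted p = 0.0397). Hoxd11 was at 6.61 and 8.11 FPKM in ASA+CUR and 0.292 and 0.0806 FPKM in Control (log2 change 2.82 ± 0.89 SE, adjusted p = 0.047). Hoxd13 was at 87.7 and 65.2 FPKM in ASA+CUR, against 3.52 and 1.86 FPKM in Control. Hoxd10 was at 9.73 and 9.73 FPKM in ASA+CUR and 0.554 and 0.250 FPKM in Control, and neither gene passed (adjusted p = 0.187 for Hoxd13 and 0.0591 for Hoxd10). All 4 were higher in both ASA+CUR libraries than in both Control libraries. Across the other AOM/DSS libraries Hoxd13 was at 75.7 and 0.0566 FPKM in ASA, 0.0323 and 71.6 FPKM in CUR and 8.35 and 0.0850 FPKM in Model, so 1 library each of ASA and CUR was as high as ASA+CUR.

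The intestinal identity factors fell. Cdx2 was at 6.34 and 7.05 FPKM in ASA+CUR, against 139 and 124 FPKM in Control (log2 change -4.10 ± 1.19 SE, adjusted p = 0.0349). Cdx1 was at 87.4 and 61.3 FPKM in ASA+CUR, against 243 and 249.6 FPKM in Control (log2 change -1.74 ± 0.33 SE, adjusted p = 0.00709). In the other AOM/DSS libraries Cdx2 was at 5.22 and 61.1 FPKM in ASA, 126 and 11.4 FPKM in CUR and 64.1 and 62.8 FPKM in Model. It was lowest in ASA replicate 0 and CUR replicate 1, where Hoxd13 was highest. None of the calls of Hoxd12, Hoxd11, Cdx2 and Cdx1 held in all the fits that leave out a library (adjusted p between 0.117 and 0.155 without 1 of the 4 libraries for Hoxd12; adjusted p between 0.125 and 0.18 without 1 of the 4 libraries for Hoxd11; adjusted p between 0.118 and 0.143 without 1 of the 4 libraries for Cdx2; adjusted p = 0.0601 without ASA+CUR replicate 1 for Cdx1). Whether the position of the sampled piece of colon had a part in other differences was not tested.

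**Figure D4:**
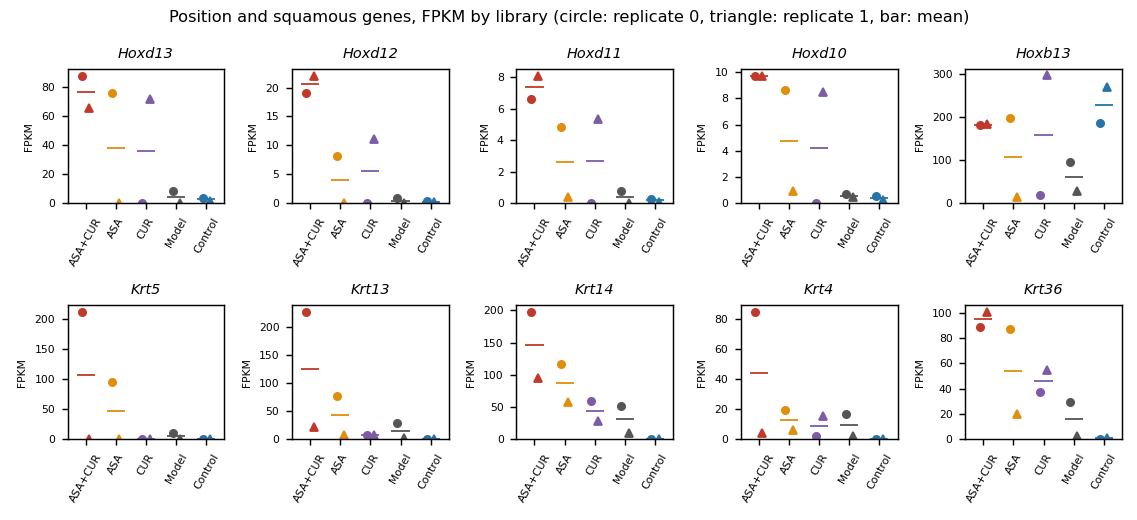
FPKM of 5 Hox genes and 5 keratin genes in all 10 libraries, with ASA+CUR at the left and Control at the right of each panel. Hoxd10 to Hoxd13 are high in both ASA+CUR libraries, in ASA replicate 0 and in CUR replicate 1, whereas Krt5 is high in ASA+CUR replicate 0 and ASA replicate 0 but near 0 in ASA+CUR replicate 1.

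Genes of the mature epithelial lineages were mostly lower in ASA+CUR. Goblet cells secrete mucus, and 13 of 16 of their genes fell and none rose (median -2.13, -1.53 in Model against Control), with 10 to 12 falling without 1 library. Of 18 listed goblet cell genes 16 could be matched to the values, and the mucin gene Muc2 was not among them. In bulk tissue, fewer cells of a type and less RNA per cell cannot be told apart. Atoh1, the factor that commits cells to the secretory lineage, was at 7.12 and 3.97 FPKM in ASA+CUR, against 44.7 and 49.8 FPKM in Control (log2 change -2.92 ± 0.23 SE, adjusted p = 0.000248). Klk1, a kallikrein protease, was at 132 and 116 FPKM in ASA+CUR, against 2492 and 2119.5 FPKM in Control (log2 change -4.21 ± 0.30 SE, adjusted p = 0.000204). Tff3, the trefoil peptide that protects the mucosa, was at 944 and 999 FPKM in ASA+CUR, against 3293 and 3452 FPKM in Control (log2 change -1.79 ± 0.22 SE, adjusted p = 0.00136). The groups were well apart for all 3. Retnlb was at 30.7 and 19.8 FPKM in ASA+CUR, against 5464 and 194 FPKM in Control (log2 change -5.33 ± 1.49 SE, adjusted p = 0.0308, but adjusted p = 0.0894 without ASA+CUR replicate 0, 0.141 without ASA+CUR replicate 1 and 0.148 without Control replicate 0).

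Hormone-producing cells showed the same direction, with 12 of 16 enteroendocrine genes lower, 1 higher and a median of -2.41. Gcg, which encodes glucagon and GLP-1 (chr2:62474530-62483653), was at 3.78 and 3.95 FPKM in ASA+CUR, against 112 and 103 FPKM in Control (log2 change -4.47 ± 0.18 SE, adjusted p = 3.6e-05). Its libraries differed little within each group. Scg2 and Scg3 encode granins of secretory granules, and were at 1.10 and 0.693 FPKM in ASA+CUR and 20.6 and 19.9 FPKM in Control (log2 change -3.50 ± 0.33 SE, adjusted p = 0.00043) for Scg2 and 0.179 and 0.0661 FPKM in ASA+CUR and 5.87 and 7.14 FPKM in Control (log2 change -2.74 ± 0.20 SE, adjusted p = 0.000229) for Scg3. Pcsk1, the enzyme that cuts prohormones, was at 0.824 and 0.826 FPKM in ASA+CUR and 7.84 and 9.38 FPKM in Control (log2 change -2.39 ± 0.19 SE, adjusted p = 0.000248). The member that rose was Nts, neurotensin, at 4.28 and 4.002 FPKM in ASA+CUR and 1.13 and 0.670 FPKM in Control (adjusted p = 0.0266, and adjusted p between 0.0839 and 0.141 without 1 of the 4 libraries). Pyy, a hormone of the distal colon named after its values were seen, did not pass (adjusted p = 0.558), at 200.03 and 36.9 FPKM in ASA+CUR, against 163 and 157 FPKM in Control. Replicate 0 lay above Control and replicate 1 below it.

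Tuft cells sense luminal parasites, and 7 of 12 of their genes fell and 1 rose (median -1.22). Trpm5, the taste channel of tuft cells, was at 0.172 and 0.253 FPKM in ASA+CUR, against 5.10 and 4.80 FPKM in Control (log2 change -2.29 ± 0.20 SE, adjusted p = 0.000329). Gnat3, the taste G protein, was at 0.0607 and 0.0671 FPKM in ASA+CUR and 3.42 and 2.36 FPKM in Control (log2 change -1.86 ± 0.22 SE, adjusted p = 0.00103). Rgs13 was at 0.229 and 0.101 FPKM in ASA+CUR and 7.32 and 3.97 FPKM in Control (log2 change -2.47 ± 0.30 SE, adjusted p = 0.00115). Avil, an actin-binding protein, rose, at 35.1 and 36.3 FPKM in ASA+CUR, against 4.55 and 4.79 FPKM in Control (log2 change 2.70 ± 0.30 SE, adjusted p = 0.000841). Avil thus ran opposite to the taste genes in all 4 libraries.

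Absorptive colonocyte and transport genes fell in 20 of 39 members, with Cldn4 the 1 that rose and a median of -1.46. Only 11 fell without ASA+CUR replicate 1, 13 without Control replicate 0 and 12 without Control replicate 1. Slc26a3, the chloride and bicarbonate exchanger, was at 31.4 and 6.80 FPKM in ASA+CUR, against 295 and 278 FPKM in Control (log2 change -4.18 ± 0.66 SE, adjusted p = 0.00352). Aqp8, a water channel, was at 12.5 and 10.4 FPKM in ASA+CUR, against 314 and 369.9 FPKM in Control (log2 change -4.78 ± 0.59 SE, adjusted p = 0.0013). The carbonic anhydrases Car4 and Car2 were at 31.7 and 14.2 FPKM in ASA+CUR and 657 and 707 FPKM in Control (log2 change -4.94 ± 0.68 SE, adjusted p = 0.00197) for Car4 and 117 and 60.9 FPKM in ASA+CUR and 451 and 589 FPKM in Control (log2 change -2.60 ± 0.37 SE, adjusted p = 0.00235) for Car2. Kcnma1, a potassium channel, was at 2.52 and 1.80 FPKM in ASA+CUR and 11.3 and 10.6 FPKM in Control (log2 change -1.93 ± 0.26 SE, adjusted p = 0.00181).

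Smooth muscle genes fell in 20 of 23 members and rose in none, with the lowest median of the lists examined, -3.28 (-2.38 in Model against Control) and 19 to 20 falling without 1 library. Their summed level was 1344 and 1322 FPKM in ASA+CUR, against 13764 and 8681 FPKM in Control. Cnn1, calponin, was at 21.4 and 19.4 FPKM in ASA+CUR, against 963 and 603 FPKM in Control (log2 change -5.16 ± 0.32 SE, adjusted p = 0.000172). Tagln, transgelin, was at 107 and 90.0 FPKM in ASA+CUR, against 2189.6 and 1244 FPKM in Control (log2 change -4.06 ± 0.31 SE, adjusted p = 0.000244). Myh11, the smooth muscle myosin, was at 21.9 and 12.3 FPKM in ASA+CUR and 468 and 327 FPKM in Control (log2 change -4.49 ± 0.44 SE, adjusted p = 0.000538). No member was listed at 0 in ASA+CUR. Tpm2 and Synm, a tropomyosin and a desmin partner, had log2 changes of -4.14 ± 0.26 and -4.43 ± 0.34 SE (adjusted p = 0.000172 and 0.000237).

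Of 20 enteric neuron and glia genes tested 18 fell (median -2.12), and their summed level was 17.7 and 17.8 FPKM in ASA+CUR, against 209 and 207 FPKM in Control. Prph, the filament peripherin, was at 0.379 and 0.168 FPKM in ASA+CUR, against 17.8 and 17.9 FPKM in Control (log2 change -3.89 ± 0.19 SE, adjusted p = 0.000109). Chrna3, a nicotinic receptor subunit, was at 0.0204 and 0 FPKM in ASA+CUR and 4.13 and 4.14 FPKM in Control (log2 change -2.35 ± 0.17 SE, adjusted p = 0.000204). Snap25, of the synaptic release machinery, was at 0.528 and 0.378 FPKM in ASA+CUR and 14.5 and 13.9 FPKM in Control (log2 change -3.39 ± 0.26 SE, adjusted p = 0.000237). S100b, a glial marker, was at 0.163 and 0.0900 FPKM in ASA+CUR and 3.28 and 3.76 FPKM in Control (log2 change -2.003 ± 0.17 SE, adjusted p = 0.000318). All 4 were near 0 in both ASA+CUR libraries. Adipocyte genes fell in 7 of 12 (median -2.43), and 5 of 15 were listed at 0 in both ASA+CUR libraries, among them Cfd, Retn and Adipoq, the protease adipsin and the hormones resistin and adiponectin. In Control Cfd was at 26.4 and 29.5 FPKM, Retn at 6.02 and 5.85 FPKM and Adipoq at 6.004 and 6.88 FPKM (adjusted p = 0.000172, 0.000172 and 0.000172). Car3, a carbonic anhydrase of fat and muscle, was at 0.670 and 0.148 FPKM in ASA+CUR and 16.8 and 22.1 FPKM in Control (log2 change -3.87 ± 0.26 SE, adjusted p = 0.000176). Of 5 skeletal muscle genes tested Tnni2 rose and Ckm and Myl1 fell, and Ckm, muscle creatine kinase, was at 0.0976 and 0 FPKM in ASA+CUR and 35.9 and 20.7 FPKM in Control. Myl1 did not pass once any library was left out (adjusted p between 0.0505 and 0.0708 without 1 of the 4 libraries). Of 16 pancreatic acinar genes 4 could be tested; Rnase1 rose (15.4 and 25.7 FPKM in ASA+CUR and 0.205 and 0.594 FPKM in Control, log2 change 3.91 ± 0.31 SE, adjusted p = 0.00026) and Zg16, also a goblet gene, fell. The part of muscle, nerve and fat in other differences was not tested.

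Genes that the 2 diet compounds are studied for were examined next. In the prostaglandin pathway 5 of 23 rose and 6 fell, where 13.1% of all genes rose and 16.4% fell. The median was -0.21. Without 1 library 3 rose, 2 to 7 fell and the median was between -0.34 and -0.07. The targets of aspirin did not pass: Ptgs1, cyclooxygenase 1, was at 14.5 and 13.2 FPKM in ASA+CUR, against 18.5 and 14.6 FPKM in Control (adjusted p = 0.533). Ptgs2, the inducible enzyme, was at 19.01 and 43.4 FPKM in ASA+CUR, against 4.99 and 1.57 FPKM in Control (log2 change 2.92 ± 0.94 SE, adjusted p = 0.0502). Both ASA+CUR libraries exceeded both Control libraries for Ptgs2 and lay below both for Ptgs1. Ptges, the prostaglandin E2 synthase coupled to Ptgs2, rose, at 9.52 and 16.1 FPKM in ASA+CUR, against 2.36 and 2.51 FPKM in Control (log2 change 1.97 ± 0.31 SE, adjusted p = 0.00327). Abcc4, an exporter of prostaglandins, was at 21.9 and 26.2 FPKM in ASA+CUR, against 3.64 and 4.34 FPKM in Control (log2 change 2.33 ± 0.31 SE, adjusted p = 0.00182). Hpgd, the enzyme that degrades prostaglandin E2, fell, at 39.9 and 15.8 FPKM in ASA+CUR, against 165 and 154 FPKM in Control (log2 change -2.61 ± 0.50 SE, adjusted p = 0.00753, but adjusted p = 0.0517 without ASA+CUR replicate 1 and 0.0512 without Control replicate 0). Tbxa2r, the thromboxane receptor, was at 0.381 and 0.536 FPKM in ASA+CUR and 3.17 and 2.20 FPKM in Control (log2 change -1.33 ± 0.21 SE, adjusted p = 0.00336). Ptgis, prostacyclin synthase, was at 3.30 and 1.44 FPKM in ASA+CUR and 7.89 and 6.31 FPKM in Control (adjusted p = 0.013, and adjusted p = 0.087 without ASA+CUR replicate 1, 0.092 without Control replicate 0 and 0.0514 without Control replicate 1).

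The neighbouring lipoxygenase list had 2 members higher and 2 lower of 13 (median 0.39, and 0.68 without Control replicate 0). Over all genes 13.1% rose and 16.4% fell, so these counts are near the share over all genes. Alox12 was at 48.2 and 45.4 FPKM in ASA+CUR, against 0.231 and 0.668 FPKM in Control (log2 change 5.06 ± 0.78 SE, adjusted p = 0.00307). Its level was 41.7 and 5.81 FPKM in ASA, 8.72 and 24.96 FPKM in CUR and 11.3 and 8.63 FPKM in Model. Alox5, which starts leukotriene synthesis, fell, at 1.02 and 0.453 FPKM in ASA+CUR and 3.58 and 3.22 FPKM in Control (adjusted p = 0.0258, and adjusted p between 0.0533 and 0.157 without 1 of the 4 libraries), as did the leukotriene C4 synthase Ltc4s, at 1.64 and 0.657 FPKM in ASA+CUR and 5.93 and 6.401 FPKM in Control (log2 change -1.78 ± 0.29 SE, adjusted p = 0.00367).

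Nrf2 targets moved in both directions, with 6 higher and 11 lower of 34, where 13.1% of all genes rose and 16.4% fell. Their median was -0.25 (-0.10 without ASA+CUR replicate 0). Nqo1, the quinone reductase often used as their readout, did not pass, at 16.8 and 9.08 FPKM in ASA+CUR, against 19.7 and 22.1 FPKM in Control (adjusted p = 0.218). Hmox1, heme oxygenase, was at 55.6 and 312 FPKM in ASA+CUR, against 4.18 and 3.26 FPKM in Control (log2 change 4.82 ± 0.83 SE, adjusted p = 0.00496). ASA+CUR replicate 1, with the higher Hmox1, also had the higher haemoglobin transcripts: Hbb-bs was at 24.7 and 198 FPKM in ASA+CUR, against 15.5 and 18.4 FPKM in Control. Hba-a1 was at 15.5 and 173 FPKM in ASA+CUR and 12.7 and 17.6 FPKM in Control (adjusted p = 0.101 for Hbb-bs and 0.219 for Hba-a1). Of 6 red blood cell genes tested 1 rose, and 5 without ASA+CUR replicate 0, with a summed level of 55.1 and 432 FPKM in ASA+CUR, against 31.2 and 41.00 FPKM in Control. The part of blood in the Hmox1 level was not tested. Slc7a11, the cystine importer, was at 7.54 and 11.8 FPKM in ASA+CUR and 1.005 and 0.378 FPKM in Control (log2 change 2.65 ± 0.46 SE, adjusted p = 0.00505). Glutathione transferases Gstm3 and Gstm1 fell, Gstm3 to 4.43 and 2.68 FPKM in ASA+CUR, against 30.5 and 33.7 FPKM in Control (log2 change -2.89 ± 0.24 SE, adjusted p = 0.000289), and Gstm1 to 62.6 and 59.1 FPKM in ASA+CUR, against 178 and 220.1 FPKM in Control (log2 change -1.69 ± 0.24 SE, adjusted p = 0.00218). Cbr1, a carbonyl reductase, was at 88.0 and 72.3 FPKM in ASA+CUR and 228 and 269.8 FPKM in Control (log2 change -1.63 ± 0.17 SE, adjusted p = 0.000712). Without 1 library 2 to 4 targets rose and 5 to 7 fell.

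Enzymes that metabolise aspirin and curcumin, the esterases, glucuronosyltransferases and sulfotransferases, fell in 19 of 25 members, and Ces1g rose (median -2.25). Their summed level was 301 and 199 FPKM in ASA+CUR, against 1292 and 1589 FPKM in Control. Ces2c, a carboxylesterase, was at 7.07 and 3.83 FPKM in ASA+CUR, against 84.4 and 119 FPKM in Control (log2 change -4.02 ± 0.28 SE, adjusted p = 0.000201). Sult1d1, a sulfotransferase, was at 12.3 and 6.04 FPKM in ASA+CUR, against 107 and 111 FPKM in Control (log2 change -3.51 ± 0.33 SE, adjusted p = 0.000449). Ugt1a7c, a glucuronosyltransferase that shares exons with its neighbours so that its reads are hard to assign, was at 18.2 and 14.6 FPKM in ASA+CUR and 102 and 113 FPKM in Control (log2 change -2.65 ± 0.23 SE, adjusted p = 0.00033). Ugdh, which makes the glucuronic acid donor, was at 33.04 and 28.8 FPKM in ASA+CUR and 135 and 183 FPKM in Control (log2 change -2.31 ± 0.20 SE, adjusted p = 0.000329). Ces1g was at 8.47 and 8.18 FPKM in ASA+CUR and 3.58 and 4.26 FPKM in Control (log2 change 0.93 ± 0.17 SE, adjusted p = 0.00638, but adjusted p = 0.0584 without Control replicate 0). The same list had a median of -1.81 in Model against Control. Cytochrome P450 genes fell in 13 of 21 and rose in 2, with a median of -1.62. Without ASA+CUR replicate 1, Control replicate 0 or Control replicate 1 only 7 fell. Cyp4f14, which breaks down leukotriene B4, was at 5.62 and 2.66 FPKM in ASA+CUR, against 97.9 and 88.3 FPKM in Control (log2 change -4.26 ± 0.49 SE, adjusted p = 0.000968). The 2 that rose did not pass once any library was left out (adjusted p between 0.0604 and 0.098 without 1 of the 4 libraries for Cyp27a1, and adjusted p between 0.0592 and 0.0961 without 1 of the 4 libraries for Cyp2b10). Cyp27a1 was at 28.9 and 21.7 FPKM in ASA+CUR and 6.78 and 7.76 FPKM in Control, and Cyp2b10 was listed at 0 in both Control libraries and at 10.9 and 5.63 FPKM in ASA+CUR.

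DNA methylation and histone deacetylase genes rose in 6 of 23 and fell in 1 (median 0.40). No more than 2 rose without 1 library, and none did without ASA+CUR replicate 1 or Control replicate 0. Dnmt3b, a de novo methyltransferase, was at 3.06 and 3.74 FPKM in ASA+CUR, against 0.658 and 1.18 FPKM in Control (log2 change 1.21 ± 0.25 SE, adjusted p = 0.00987, but adjusted p = 0.0768 without ASA+CUR replicate 1 and 0.0789 without Control replicate 0). Dnmt1, the maintenance methyltransferase, was at 23.97 and 26.1 FPKM in ASA+CUR and 13.9 and 14.6 FPKM in Control (log2 change 0.77 ± 0.24 SE, adjusted p = 0.0465). Its partner Uhrf1 was at 22.1 and 25.02 FPKM in ASA+CUR and 15.4 and 12.3 FPKM in Control (log2 change 0.73 ± 0.23 SE, adjusted p = 0.0449). Hdac11, the member that fell, was at 8.996 and 10.4 FPKM in ASA+CUR and 20.1 and 28.3 FPKM in Control (log2 change -1.22 ± 0.38 SE, adjusted p = 0.043). None of the 3 passed once any library was left out (adjusted p between 0.123 and 0.199 without 1 of the 4 libraries for Dnmt1, adjusted p between 0.0939 and 0.222 without 1 of the 4 libraries for Uhrf1, and adjusted p between 0.0938 and 0.211 without 1 of the 4 libraries for Hdac11).

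Most genes of mitochondrial metabolism were lower in ASA+CUR. Oxidative phosphorylation genes fell in 29 of 32 members, all 32 had a log2 change below 0, and the median was -1.01. Leaving out 1 library lowered the count to between 12 and 16 and left the median between -1.06 and -0.997. Sdhb, a subunit of succinate dehydrogenase, was at 109.6 and 121 FPKM in ASA+CUR, against 308 and 293 FPKM in Control (log2 change -1.38 ± 0.17 SE, adjusted p = 0.00132). Ndufa1, of complex I, was at 149 and 143 FPKM in ASA+CUR and 390.4 and 353 FPKM in Control (log2 change -1.34 ± 0.20 SE, adjusted p = 0.00273). Genes of fatty acid oxidation and PPAR targets fell in 16 of 29 and rose in none (median -0.98). Ech1 and Hadh, enzymes of beta-oxidation, were at 85.9 and 65.9 FPKM in ASA+CUR and 256 and 242 FPKM in Control (log2 change -1.71 ± 0.17 SE, adjusted p = 0.000535) for Ech1 and 98.6 and 73.1 FPKM in ASA+CUR and 239 and 284 FPKM in Control (log2 change -1.61 ± 0.19 SE, adjusted p = 0.00107) for Hadh. Ppard, a nuclear receptor of the epithelium, was at 35.9 and 32.3 FPKM in ASA+CUR and 91.8 and 92.1 FPKM in Control (log2 change -1.41 ± 0.19 SE, adjusted p = 0.00176). Of 26 glycolysis and hypoxia genes 3 rose and 5 fell, where 13.1% of all genes rose and 16.4% fell. Without 1 library 1 to 3 rose and 2 fell. Their median of -0.19 was 0.13 without ASA+CUR replicate 0, -0.04 without Control replicate 0 and 0.11 after quantile normalization. Slc16a3, the lactate exporter, was at 24.4 and 53.4 FPKM in ASA+CUR and 5.57 and 4.49 FPKM in Control (log2 change 2.63 ± 0.37 SE, adjusted p = 0.00221). Pfkm, muscle phosphofructokinase, was at 3.50 and 1.90 FPKM in ASA+CUR and 10.8 and 12.1 FPKM in Control (log2 change -1.78 ± 0.25 SE, adjusted p = 0.00211). Cytosolic ribosomal protein genes fell in 0 and rose in 0 of 32, and their median of -0.38 was 0.21 after quantile normalization. As fitted, all 32 of them also had a log2 change below 0, so this direction was not particular to oxidative phosphorylation genes.

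DNA replication and mitosis genes rose in 7 of 32, and none fell, and 1 to 2 rose without 1 library. Their median was 0.56, and 31 of 32 had a log2 change above 0, against 51.6% of all genes. Members of a list can move together, as the ribosomal protein genes did in the other direction, so they are not independent observations. Mcm3, a subunit of the replication helicase, was at 30.7 and 31.3 FPKM in ASA+CUR, against 14.7 and 14.5 FPKM in Control (log2 change 1.04 ± 0.19 SE, adjusted p = 0.00608). Mki67, a proliferation marker, did not pass, at 18.8 and 24.2 FPKM in ASA+CUR, against 16.9 and 13.9 FPKM in Control (adjusted p = 0.358). In the p53 and apoptosis list 7 of 26 rose and 2 fell (median 0.38), where 13.1% of all genes rose and 16.4% fell. Without 1 library 3 to 7 rose and 0 to 1 fell. Trp53 itself was at 71.0 and 83.6 FPKM in ASA+CUR, against 37.4 and 37.3 FPKM in Control (log2 change 1.02 ± 0.15 SE, adjusted p = 0.00262). Bcl2l1, a survival factor, was at 47.2 and 62.6 FPKM in ASA+CUR and 26.6 and 24.7 FPKM in Control (log2 change 1.05 ± 0.17 SE, adjusted p = 0.00353). Mgmt, which repairs the methylguanine that AOM leaves in DNA and was named after its values were seen, was at 1.99 and 2.61 FPKM in ASA+CUR, against 7.72 and 7.97 FPKM in Control (log2 change -1.43 ± 0.40 SE, adjusted p = 0.03, but adjusted p between 0.099 and 0.129 without 1 of the 4 libraries). The death receptor Fas was at 5.59 and 3.91 FPKM in ASA+CUR and 8.399 and 9.94 FPKM in Control (adjusted p = 0.0191, and adjusted p = 0.144 without ASA+CUR replicate 1, 0.0674 without Control replicate 0 and 0.124 without Control replicate 1).

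**Figure D5:**
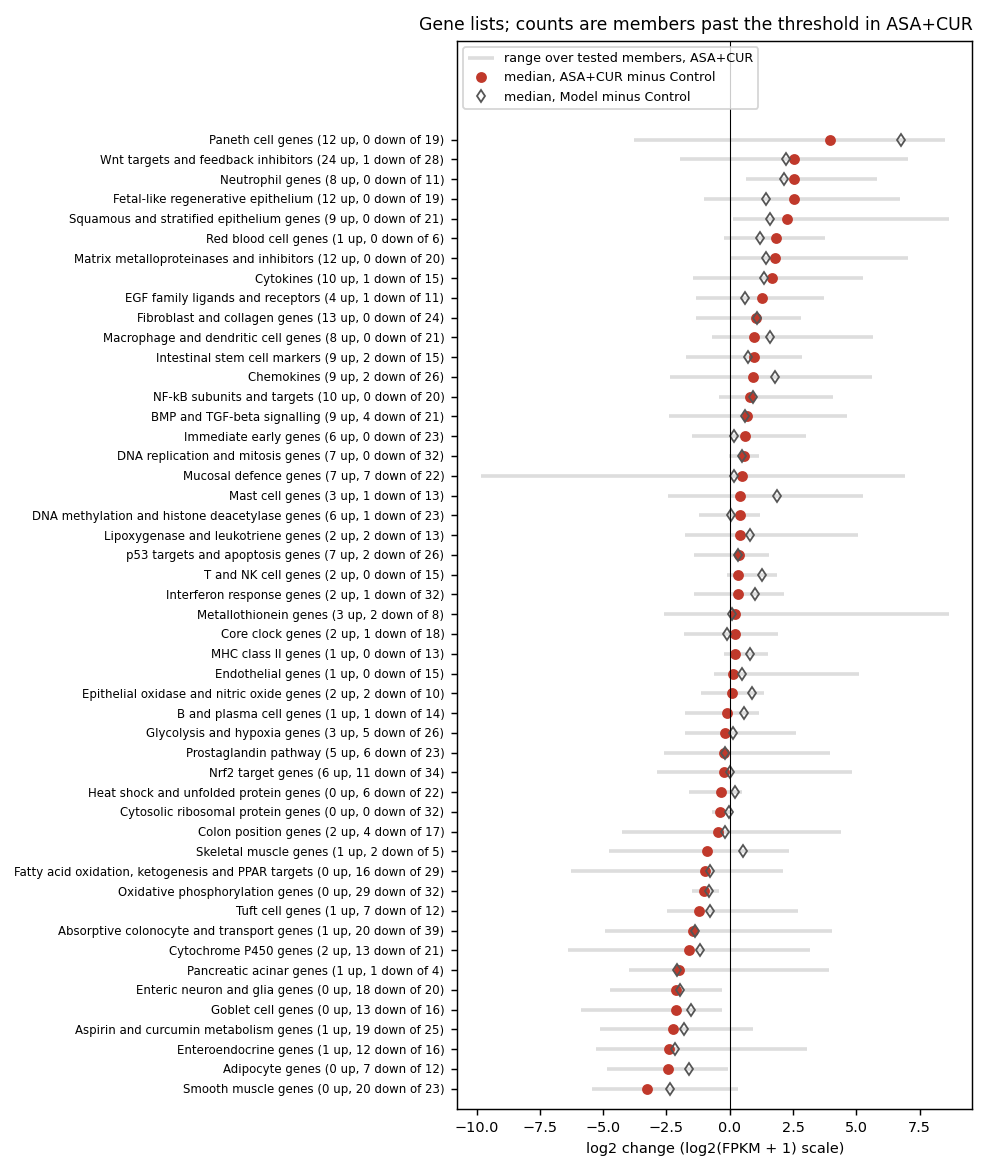
Median log2 change of each gene list in ASA+CUR minus Control (red circles) and in Model minus Control (open diamonds), with grey bars for the range over tested members in ASA+CUR and, in brackets, the members past the threshold. Paneth, Wnt and neutrophil lists lie at the top and smooth muscle, adipocyte and enteroendocrine lists at the bottom; the 2 comparisons share the Control libraries.

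ASA+CUR was tested directly against the other AOM/DSS groups to ask where the combination diet differed from the base diet and from either compound alone. Against Model, 2 features passed with limma (0.0142% of 14061, 1 higher and 1 lower, 0.00711% each, with 0 left without ASA+CUR replicate 0 and 1 left without any other of the 4 libraries), 1416 had an unadjusted p under 0.05 and the median absolute log2 difference was 0.23. Hba-a2, an alpha-globin gene, was at 9.22 and 18.1 FPKM in ASA+CUR, against 0.0361 and 0.0358 FPKM in Model (log2 difference 3.75 ± 0.33 SE, adjusted p = 0.0258), and the assignment of reads between it and the almost identical Hba-a1 is uncertain, whose level was 15.5 and 173 FPKM in ASA+CUR and 26.4 and 85.4 FPKM in Model. NM_010039, a transcript without a gene name, was listed at 0 in both ASA+CUR libraries and at 14.2 and 6.81 FPKM in Model (adjusted p = 0.0258). No further gene passed. Arhgap40 was at 3.84 and 3.60 FPKM in ASA+CUR and 0.872 and 0.459 FPKM in Model, and the exonuclease gene Trex2 at 5.35 and 4.79 FPKM in ASA+CUR and 1.08 and 0.703 FPKM in Model (adjusted p = 0.124 and 0.124). Alb, albumin, was at 2.71 and 2.43 FPKM in ASA+CUR and 46.9 and 112 FPKM in Model (adjusted p = 0.124).

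Between ASA+CUR and Model many lists lay to 1 side without a member past the threshold. Of 19 Paneth cell genes 1 lay above Model (median -2.12), of 32 interferon response genes 1 (median -0.71), and of 15 T and NK cell genes 0 (median -0.77), where 48.0% of all genes did. The same held for genes with other roles: of 32 ribosomal protein genes 0 lay above Model (median -0.34), of 32 oxidative phosphorylation genes 1 (median -0.26), of 16 goblet cell genes 1 (median -0.74) and of 10 oxidase and nitric oxide genes 0 (median -0.62). Fetal-like epithelium lay above Model in 15 of 19 members (median 0.94) and squamous genes in 18 of 21 (median 1.23). Inhba, of the BMP and TGF-beta list, was at 27.7 and 47.5 FPKM in ASA+CUR and 7.89 and 6.10 FPKM in Model (adjusted p = 0.268). Wnt list members had a median of 0.32 and smooth muscle genes a median of -0.85.

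The doses differ between the diets, so their values stand side by side and any difference cannot be tied to 1 compound. Against ASA no gene passed with limma (0.0%), 399 had an unadjusted p under 0.05, and the smallest adjusted p was 0.277, for Irgm2 at 14.5 and 11.99 FPKM in ASA+CUR and 36.6 and 39.2 FPKM in ASA. The GTPase gene was thus lower in both ASA+CUR libraries than in both ASA libraries. Against CUR no gene passed with limma either (0.0%), 1944 had an unadjusted p under 0.05, and 1956 passed once CUR replicate 1 was left out, so that count rests on a single CUR library. Hba-a2 came nearest (adjusted p = 0.0516), followed by Gcg at 3.78 and 3.95 FPKM in ASA+CUR and 12.4 and 10.9 FPKM in CUR (adjusted p = 0.279). Interferon response genes lay above ASA in 0 and above CUR in 0 of 32 members (medians -1.36 and -1.83), against 50.6% and 49.96% of all genes, and none passed. This was not particular to interferon genes. T and NK cell genes lay above ASA in 0 and above CUR in 0 of 15 members. Ribosomal protein genes lay above ASA in 1 and above CUR in 0 of 32. Goblet cell genes lay above CUR in 0 of 16, but above ASA in 7.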

How the data were processed

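The authors deposited FPKM values per transcript for all 10 libraries, and per the submitters' processing notes used Cuffdiff, TopHat2 (version 2.0.9), Bowtie2 (version 2.1.0.0) and, for base calls, bcl2fastq (version 2.17.1.14), on mm10 or GRCm38. Values of 30073 transcripts were summed to 23488 genes by RefSeq symbol, and 451 transcripts without a name kept their identifiers. FPKM removes read numbers, so depth is unknown and a 0 may be a failed estimate. The 14061 genes that reached 1 FPKM in 2 or more libraries were fitted as log2(FPKM + 1) with limma 3.58.1 (R 4.3.3), 5 group means over 10 libraries, intensity trend and Benjamini-Hochberg adjustment over all genes. Fold changes on this scale understate the change of low genes. The fit was tested on simulated data for ASA+CUR against Control (14061 genes, 200 of them changed). It found 0% of genes with a log2 change of 1, 73.5% with 2 and 92.5% with 3. In the data 4148 genes passed, which makes the Benjamini-Hochberg cut less strict than in the simulation. The simulated shares therefore do not carry over to the data, where Irgm2 passed at a log2 change of 0.61. A gene that did not pass may still differ.

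Alternatives were the pseudocount, the filter, scaling, the libraries in the fit, the trend, the highest transcript per gene, a replicate block and leaving out each library. Those for ASA+CUR against ASA and against CUR were chosen after seeing the data. The members and gene lists were chosen with earlier results of these data known. Named genes were the 15 highest and 15 lowest log2 changes past the threshold, up to 5 members per list by smallest p, and a fixed set of standard markers. The 15 highest and 15 lowest were taken among genes whose ASA+CUR and Control libraries did not overlap. This held for all genes past the threshold. The remaining named genes, among them Hoxd13, Krt5, Trp63, Wnt6, Lef1, Tcf7, Mmp3, Timp1, Ascl2, Dnmt1, Uhrf1, Slc7a11, Myh11, Gbp2 and Ltf, were named after their values were seen. Some genes are not reported here by name. Counts over a list cover the members that passed the filter. A member that passed it through 1 group alone had to differ, so the counts and medians are descriptions. Promoters are from RefSeq.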

Additional observations from a re-analysis of the deposited data

How the results depend on the processing

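With 2 libraries per group the number of calls moved with the fit. In ASA+CUR against Control, 6758 genes passed when these groups were fitted alone (3299 higher, 3459 lower). Leaving out 1 library gave 1481 to 2312 genes (590 to 944 higher, 891 to 1368 lower). The other settings kept each of these 3 counts within 1.5 times. None of the 4148 genes changed direction under any setting except the highest transcript per gene, where 11 did. The correlation of replicate differences was -0.07 between ASA+CUR and Control, 0.33 between ASA+CUR and ASA and -0.04 between ASA+CUR and CUR. These values cannot tell whether replicate numbers pair the libraries. With a replicate block 3956 genes passed.

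Against Model the 2 calls became 0 at a minimum of 5 FPKM, 4 with the 2 groups fitted alone, 1 with the highest transcript per gene, 0 with a replicate block, and 0 to 1 without 1 library. Against ASA the count of 0 became 2 without a filter, 1 with the 2 groups fitted alone, and 0 to 1 without 1 library. Against CUR the count of 0 became 1 with a pseudocount of 0.1 or 0.5, with the 2 groups fitted alone or with no intensity trend, and 0 to 1956 without 1 library. The cause was not tested.

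Of 292 named genes, 59 to 80 lost their call when 1 library was left out. The other settings removed the call of 1 to 19, most with no filter on low values. Of 49 list medians, 19 moved by more than the spread between libraries with a pseudocount of 0.1, 10 with a pseudocount of 0.5, 14 with quantile normalization, 13 at a minimum of 5 FPKM, 3 with the highest transcript per gene and 6 to 13 without 1 library; none did under the other settings. Quantile normalization moved the median of all genes to 0.04, against 0.03 as fitted.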

Other observations

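Metal-binding, stress and clock genes were not part of the comparisons above. Metallothioneins bind zinc and copper, and of 8 genes in their list 3 rose and 2 fell in ASA+CUR, with a median log2 change of 0.23 (0.41 without Control replicate 0 and 0.04 without Control replicate 1). Besides Mt4, Mt2 was at 299.6 and 277 FPKM in ASA+CUR, against 71.4 and 30.98 FPKM in Control (log2 change 2.59 ± 0.50 SE, adjusted p = 0.0076, but adjusted p = 0.0549 without Control replicate 1). Mt3 was at 192 and 362 FPKM in ASA+CUR, against 33.8 and 27.9 FPKM in Control (log2 change 3.06 ± 0.32 SE, adjusted p = 0.00068). The zinc exporter gene Slc30a1 was at 6.60 and 6.44 FPKM in ASA+CUR and 11.9 and 11.2 FPKM in Control (log2 change -0.74 ± 0.14 SE, adjusted p = 0.00793, but adjusted p = 0.0672 without ASA+CUR replicate 1, 0.0705 without Control replicate 0 and 0.0507 without Control replicate 1). The zinc importer gene Slc39a5 was at 9.43 and 5.05 FPKM in ASA+CUR and 47.7 and 47.2 FPKM in Control (log2 change -2.61 ± 0.42 SE, adjusted p = 0.00381). The 2 transporter genes were thus lower in ASA+CUR while both metallothionein genes were higher.

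Heat shock and unfolded protein genes fell in 6 of 22 members and none rose, where 16.4% of all genes fell and 13.1% rose. Their median was -0.33 (-0.12 without Control replicate 0, -0.20 without ASA+CUR replicate 0 and -0.57 without Control replicate 1). No more than 3 members fell without 1 library. Hspa1b, an inducible chaperone with a near-identical copy in Hspa1a, was at 8.60 and 5.49 FPKM in ASA+CUR, against 22.6 and 17.2 FPKM in Control (adjusted p = 0.0459, but adjusted p between 0.0774 and 0.229 without 1 of the 4 libraries). The circadian clock list had 2 members higher and 1 lower of 18 (median 0.21, and 0.42 without Control replicate 0), where 13.1% of all genes rose and 16.4% fell, and the time of day of collection is not stated in the labels. Arntl, the clock activator, was at 4.98 and 7.07 FPKM in ASA+CUR, against 21.8 and 24.5 FPKM in Control (log2 change -1.80 ± 0.22 SE, adjusted p = 0.00128). Ciart, a clock repressor, was at 4.71 and 3.79 FPKM in ASA+CUR and 0.467 and 0.331 FPKM in Control (log2 change 1.90 ± 0.38 SE, adjusted p = 0.00926, but adjusted p = 0.0527 without ASA+CUR replicate 0, 0.0507 without Control replicate 0 and 0.0611 without Control replicate 1). Bhlhe40, which also responds to low oxygen, was at 131 and 121 FPKM in ASA+CUR and 55.5 and 47.8 FPKM in Control (log2 change 1.28 ± 0.18 SE, adjusted p = 0.0021).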
